A study of Mus musculus with 6 samples.

Results

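The subject here is a group of 9 genes for amino acid transporters of the plasma membrane, Slc7a1, Slc7a3, Slc7a5, Slc7a11, Slc3a2, Slc1a4, Slc1a5, Slc38a1 and Slc38a2. They were chosen by gene symbol with earlier results of these data known, as were the other gene lists below. Counts set beside shares of all genes are therefore a description. All 9 of 9 were found among the 17485 genes in the count files and passed the filter on low counts, which left 12755 genes for testing. The cells were the E14 line of pluripotent stem cells from 129/Ola mouse embryos, grown in serum with leukaemia inhibitory factor. Treatment began 24 h after plating. One group received 250 ug/mL cycloheximide, a drug that stops ribosomes during elongation, for 3 h, a second received the same dose for 6 h, and both had it in 0.007% ethanol. The control group was kept for 9 h with ethanol and no drug, so drug and length of exposure both set it apart from the treated groups and cannot be told apart. Each group held 2 libraries of polyadenylated RNA from this 1 cell line, 6 libraries in all. Nothing in the labels says that the 2 libraries of a group came from separate cultures, so the p-values measure the spread between these libraries, which may be technical.

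Cells take up amino acids through families of transporters with overlapping substrates. Slc7a1 and Slc7a3 carry arginine and lysine. Slc7a5 exchanges large neutral amino acids such as leucine and Slc7a11 exchanges cystine for glutamate, and each works as the light chain of a heterodimer whose heavy chain, Slc3a2 (also called CD98 or 4F2hc), brings it to the cell surface. Slc1a4 and Slc1a5 carry small neutral amino acids and, in the case of Slc1a5, glutamine, while Slc38a1 and Slc38a2 import small neutral amino acids together with sodium. Many of these genes are known targets of ATF4, a transcription factor that is translated when amino acids are scarce or initiation factor eIF2 is phosphorylated, and leucine and arginine brought in this way are sensed by the mTORC1 kinase pathway.

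Library totals ran from 9385447 to 27351079 counts, with the smallest among the controls and the largest in the 6 h group. A count of 3, taken as the detection floor, was worth 0.0990 to 0.367 CPM. CPM here means counts rescaled to a common library total after trimmed mean of M-values (TMM) scaling, and since no gene length enters it, CPM values are compared between libraries and never between genes. Mitochondrially encoded genes took 24.7% and 24.9% of counts in the control libraries, 19.6% and 18.9% at 3 h, and 17.4% and 16.6% at 6 h; with these genes removed before scaling, the counts of transporters called at 3 h, at 6 h and between the 2 times were 0, 5 and 1, as with them. All 10 pluripotency markers were detected, although Nanog was low, at 3.86 to 10.02 CPM over the 6 libraries. Their summed level was 6976 to 7135 CPM in the controls, 8028 to 8277 CPM at 3 h and 5557 to 5735 CPM at 6 h. Sox2 was the largest part, with means of 2442, 3904 and 2358 CPM in the control, 3 h and 6 h groups. Of the 10, 6 had a log2 fold change below 0 at 3 h (median -0.06) and all 10 at 6 h (median -0.36). The 6 primitive endoderm markers summed to 5.85 to 7.82, 15.4 to 19.1 and 12.7 to 15.0 CPM in the control, 3 h and 6 h groups. The 5 of 6 fibroblast markers in the files summed to at most 10.1 CPM in any library, and 2 of the 5, Col1a2 and Dcn, were at 0 counts in all control and 3 h libraries. The 4 of 5 mesoderm and trophoblast markers in the files summed to at most 11.7 CPM, and the 4 neural markers to 327 to 338 CPM in the controls, 281 to 323 CPM at 3 h and 136 to 142 CPM at 6 h, lowest at 6 h as for several of the transporters. Tubb3 and Sox1 made up most of that neural sum, and its fall was that of Tubb3. Mean Tubb3 was 264, 199 and 71.8 CPM in the control, 3 h and 6 h groups. Sox1 was at 67.0, 100 and 64.1 CPM, and Pax6 was higher after treatment, at 1.42, 2.66 and 2.93 CPM. Neurog2 and the trophoblast marker Cdx2 stayed at or under 3 counts in every library. What part other cell types or the culture state had in the transporter results was not tested, and in bulk RNA fewer cells of a type and less RNA per cell cannot be told apart.

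After 6 h of cycloheximide, 5 of the 9 transporter mRNAs were lower than in the control and 0 were higher (edgeR quasi-likelihood test, Benjamini-Hochberg adjusted p under 0.05). The 5 were both arginine and lysine transporters, Slc7a1 and Slc7a3, both light chains, Slc7a5 and Slc7a11, and the sodium-coupled transporter Slc38a2. The heavy chain Slc3a2 and the transporters Slc1a4, Slc1a5 and Slc38a1 did not pass the test. Over all 12755 genes, 30.2% were called in this comparison, 14.9% in the downward direction and 15.4% in the upward direction. For 6 of the 9, the called genes and Slc38a1, both 6 h libraries lay below both controls, and for 0 both lay above; over all genes 66.8% did not overlap, 31.2% with the treated libraries lower and 35.7% higher. The median log2 fold change of the 9 was -0.63, with a range from -2.35 to 0.03, beside a median of 0.04 over all genes tested. With scaling to library totals alone, the median over all genes moved to 0.40 and that of the 9 to -0.28. Of the 9, 5 were then called, 4 of them lower, with Slc7a3 no longer called and Slc3a2 called higher. That setting called 34.8% of all genes, 87.6% of them higher.

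At 3 h, 0 of the 9 passed the same edgeR test, against 4.56% of all genes called (3.21% higher and 1.36% lower). At an unadjusted p under 0.05 there were 6 of the 9, beside 3011 of all 12755 genes. DESeq2 called 11.3% of all genes and 2 of the 9 transporters, and gave Slc7a11 (log2 fold change -2.70) no adjusted p. The 2 were Slc7a3, with a log2 fold change of -0.41 (DESeq2 adjusted p = 0.0198), and Slc38a2, with -0.45 (DESeq2 adjusted p = 0.0065). Limma-voom called 0 of the 9, beside 3.49% of all genes. The median log2 fold change of the 9 at 3 h was -0.35, from -2.65 to 0.78, beside 0.02 over all genes. For 5 of the 9, both 3 h libraries lay below both control libraries, and for 1, Slc1a4, both lay above; over all genes 53.2% did not overlap, 24.8% with the treated libraries lower and 28.4% higher. The comparisons of 3 h and of 6 h with the control share the same 2 control libraries.

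**Figure D1:**
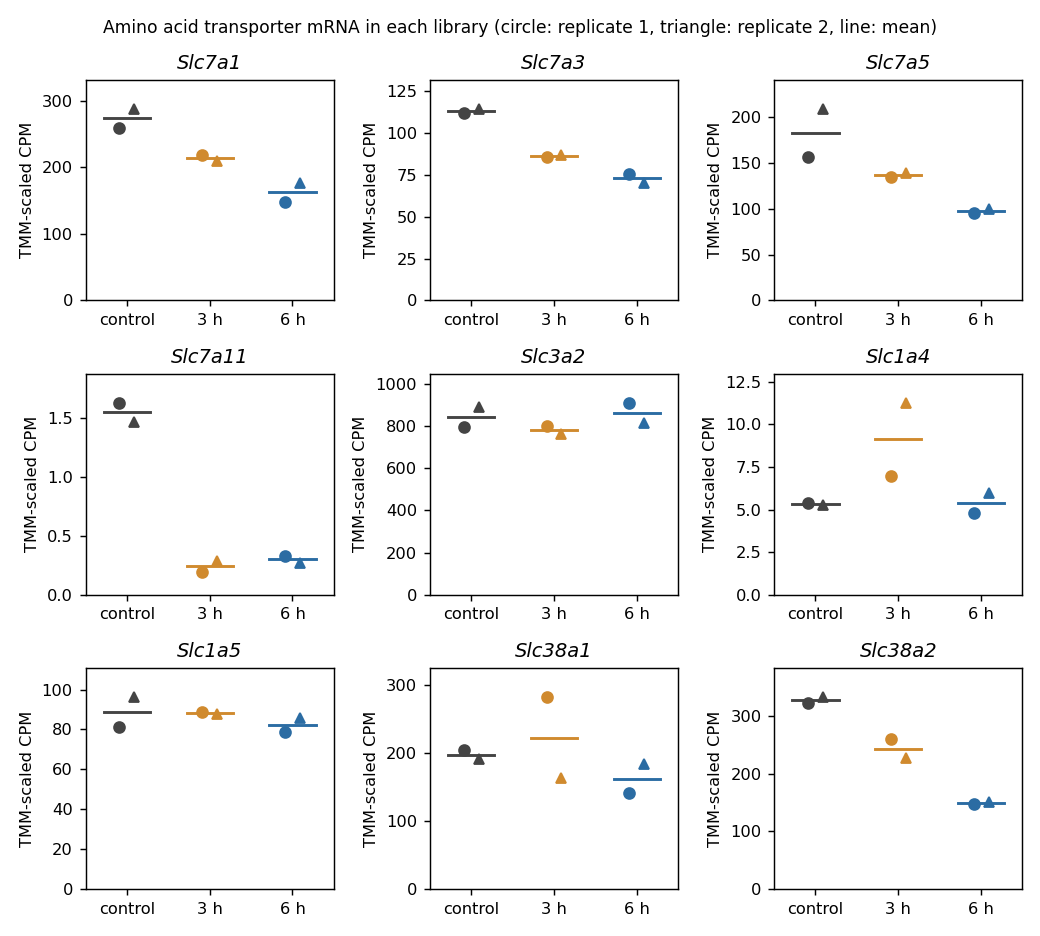
Level of each of the 9 transporter mRNAs in TMM-scaled CPM (vertical axis, linear, starting at 0) in the control, 3 h and 6 h groups. Circles are replicate 1, triangles replicate 2 and lines the mean of 2 libraries. The levels of Slc7a1, Slc7a3, Slc7a5 and Slc38a2 step down from control to 3 h to 6 h without overlap, Slc7a11 is low at both times, and Slc3a2 and Slc1a5 stay within overlapping or nearly overlapping ranges. How many of all genes step down in this way was not counted.

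The 2 transporters of cationic amino acids were lower after 6 h of cycloheximide. Slc7a1 (CAT1, an arginine and lysine importer and the receptor of ecotropic murine leukaemia virus), at chr5:148327410-148399904 on the minus strand of GRCm38, measured 259 and 288 CPM in the controls, 219 and 210 CPM at 3 h, and 148 and 176 CPM at 6 h. The 3 groups did not overlap, and their order was control, then 3 h, then 6 h. How many of all genes show such steps was not counted, here or for the transporters below. By pairs, 24.8% of all genes lay lower without overlap at 3 h and 31.2% at 6 h, each against control. From 3 h to 6 h the share was 26.9%. Against the control the 6 h log2 fold change was -0.75 ± 0.12 (SE; edgeR adjusted p = 0.00285), a level 40.6% lower. The steps on either side of the 3 h group did not pass the test, at -0.35 ± 0.12 for 3 h against control (edgeR adjusted p = 0.129) and -0.40 ± 0.12 for 6 h against 3 h (edgeR adjusted p = 0.105).

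Slc7a3 (CAT3), the other arginine and lysine carrier of the family, lies at chrX:101079210-101086020 on the minus strand. Its level was 112 and 115 CPM in the controls, 86.0 and 87.0 CPM at 3 h and 75.7 and 70.2 CPM at 6 h. Again all control libraries were highest and all 6 h libraries lowest, with no overlap between groups and SDs of 0.698 to 3.90 CPM (n = 2 per group). The 6 h log2 fold change was -0.63 ± 0.12 (edgeR adjusted p = 0.00439), or 35.5% lower. At 3 h it was -0.39 ± 0.12 (edgeR adjusted p = 0.0870), and from 3 h to 6 h -0.24 ± 0.11 (edgeR adjusted p = 0.261), neither of which passed. The ratio of Slc7a1 to Slc7a3 counts within a library, relative to the control mean, was 0.959 and 1.04 in the controls, 1.06 and 0.999 at 3 h, and 0.812 and 1.04 at 6 h, so the groups overlapped.

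Slc7a5, the leucine exchanger known as LAT1, was the light chain with the higher counts of the pair, between 1716 and 2910 per library. It lies at chr8:121881150-121907694 on the minus strand, inside the span of an annotated plus-strand locus, Gm20388, that is no row of the files. Its level was 157 and 210 CPM in the controls, 135 and 139 CPM at 3 h, and 96.0 and 100.4 CPM at 6 h. The control libraries were the most scattered (SD 37.1 CPM, n = 2, against 2.67 at 3 h and 3.06 at 6 h), yet the lower control was still above both 3 h libraries, and these above both 6 h libraries. At 6 h the log2 fold change against the control was -0.90 ± 0.14 (edgeR adjusted p = 0.00260), a fall of 46.3%. At 3 h it was -0.42 ± 0.14 (edgeR adjusted p = 0.123); without control replicate 1 this became -0.62 and passed (edgeR adjusted p = 0.0367).

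Slc7a11, the cystine and glutamate exchanger known as xCT, supplies cysteine for glutathione synthesis and had the fewest reads of the 9. Its counts were 22 and 12 in the controls, 3 and 5 at 3 h, and 10 and 7 at 6 h, which correspond to 1.63 and 1.47 CPM, 0.194 and 0.289 CPM, and 0.330 and 0.268 CPM. One 3 h library was thus at the floor of 3 counts. Both treated groups lay well below the controls and overlapped each other. From the summed counts, 8 at 3 h and 17 at 6 h against 34 in the controls, the ratio to the control level was 0.156 at 3 h (95% exact interval 0.0622 to 0.342) and 0.192 at 6 h (0.101 to 0.354), where the intervals cover counting error only. The fitted log2 fold change was -2.35 ± 0.62 at 6 h (edgeR adjusted p = 0.0154) and -2.65 ± 0.81 at 3 h (edgeR adjusted p = 0.0610). The call at 6 h was lost when any 1 control or 6 h library was left out (edgeR adjusted p from 0.0576 to 0.132) and when all libraries were thinned to the smallest total (edgeR adjusted p = 0.0592). Between 3 h and 6 h the ratio was 1.24 (0.505 to 3.31), so a difference between the 2 times was not detectable at this depth.

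The gene lies at chr3:49892526-50443614 on the minus strand, and 5 other annotated loci inside its span, among them 1 antisense RNA and 3 processed pseudogenes, are no rows of the files. Whether counting used strand is not given in the sources used here, so reads from such overlapping loci cannot be told apart from those of Slc7a11, or of Slc7a5. Its promoter is shown because it is one of the 2 promoters among these genes that hold the core of the C/EBP-ATF response element, the DNA sequence through which ATF4 and its partners are known to act. RefSeq promoter windows of the GRCm38.p6 assembly, from 250 bases before the annotated start to 50 after it, were matched for 5 of the 9 genes: Slc7a1 (with 2 starts), Slc7a11, Slc3a2, Slc1a4 and Slc38a2. Slc7a3, Slc7a5, Slc1a5 and Slc38a1 were without an entry. The 8-letter motif TGATGNAA was searched on both strands, where N is any base. The sequences below run 5′ to 3′ on the strand of the gene, from 250 bases before the start to 3 after it, 254 bases each, at chr3:50443610-50443863 for Slc7a11 and chr11:20332710-20332963 for Slc1a4, both on the minus strand, and capitals mark the motif matches.
Slc7a11: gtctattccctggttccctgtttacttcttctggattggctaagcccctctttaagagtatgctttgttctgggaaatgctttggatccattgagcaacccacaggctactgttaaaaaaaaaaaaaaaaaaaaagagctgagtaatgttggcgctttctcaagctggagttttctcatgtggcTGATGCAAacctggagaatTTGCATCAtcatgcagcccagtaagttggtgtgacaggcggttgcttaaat
Slc1a4: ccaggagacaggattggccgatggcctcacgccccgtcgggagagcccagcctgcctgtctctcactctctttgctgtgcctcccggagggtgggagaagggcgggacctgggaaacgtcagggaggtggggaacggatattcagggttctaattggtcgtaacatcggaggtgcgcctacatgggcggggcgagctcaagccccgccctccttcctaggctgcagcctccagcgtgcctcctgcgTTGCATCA

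Slc7a11 held 2 matches, one at -66 to -59 on the gene's own strand and one at -47 to -40 on the opposite strand, counting the annotated start base as 0 (chr3:50443672-50443679 and chr3:50443653-50443660). The 2 matches face each other and do not overlap. Slc1a4 held 1 match, at -4 to 3 on the opposite strand (chr11:20332710-20332717), across the start itself. All 3 matches read TGATGCAA in the motif's own orientation. Both windows of Slc7a1 and those of Slc3a2 and Slc38a2 held 0 matches, which says only that these letters are not in those windows. The Slc3a2 window, at chr19:8713848-8714147, lies inside that gene's annotated span, and the 5′ end of that span was not searched. The element described for Slc38a2 lies in an intron. Over all 32851 promoter windows of the same length, 1304 (3.97%) held the motif and 23 (0.07%) held it 2 times or more. In a shorter window of 150 bases before the start, 1 of the 5 genes, Slc7a11, held it, beside 2.23% of all windows. The promoter with 2 matches belonged to a gene whose mRNA fell, and the one with 1 match to a gene whose mRNA did not pass the test. A match of letters is a description and no evidence that a factor binds there.

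**Figure D2:**
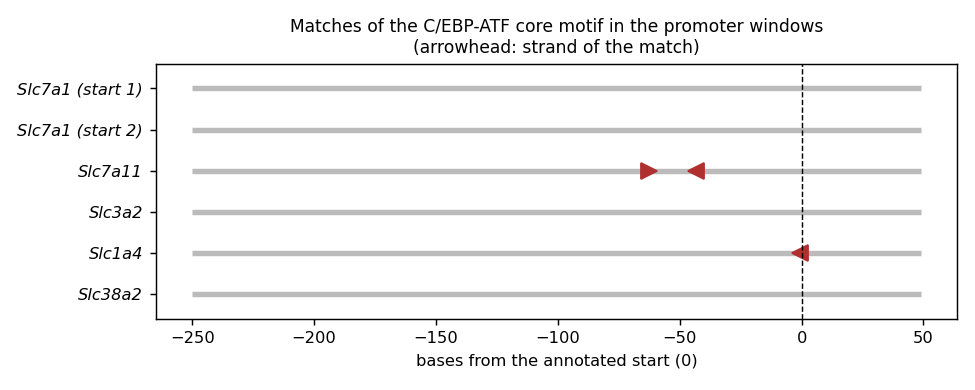
Position of motif matches in the 6 promoter windows of the 5 genes with an entry (horizontal axis, bases from the annotated start at 0). Grey bars are the windows from 250 bases before the start to 50 after it, and arrowheads show the strand of each match. Slc7a11 carries 2 matches before the start, Slc1a4 carries 1 at the start, and the other windows are without a match.

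Slc3a2, the shared heavy chain, did not pass the test at any time. It lies at chr19:8706882-8723369 on the minus strand and had 7303 to 27622 counts per library, the most of the 9. The controls measured 796 and 892 CPM, the 3 h libraries 802 and 765 CPM, and the 6 h libraries 912 and 814 CPM. The ranges of the control group and of each treated group overlapped, and the means followed no order in time. At 3 h the log2 fold change was -0.11 (95% confidence interval -0.35 to 0.14, edgeR adjusted p = 0.585) and at 6 h 0.03 (-0.21 to 0.27, edgeR adjusted p = 0.851). With scaling to library totals alone the value at 3 h changed sign, to 0.12 (edgeR adjusted p = 0.507), and that at 6 h was called higher, at 0.39 (edgeR adjusted p = 0.0190), beside medians of 0.25 and 0.40 over all genes.

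The light chains can also be set against their heavy chain without any scaling, as the ratio of counts within each library. Relative to the control mean, the ratio of Slc7a5 to Slc3a2 was 0.913 and 1.09 in the controls, 0.779 and 0.840 at 3 h, and 0.487 and 0.570 at 6 h. For Slc7a11 to Slc3a2 the values were 1.11 and 0.890 in the controls, 0.131 and 0.205 at 3 h, and 0.196 and 0.179 at 6 h, on the low counts given above. Both light chains were thus lower per heavy-chain read in every treated library than in any control library. The ratios of Slc7a1, Slc7a3 and Slc38a2 to Slc3a2 were likewise lower in all 4 treated libraries than in both controls, down to 0.503 and 0.669, 0.618 and 0.642, and 0.417 and 0.477 at 6 h. The ratio of Slc1a5 to Slc3a2, at 1.05 and 1.09 at 3 h and 0.825 and 1.00 at 6 h, did not separate the 6 h group from the controls (0.973 and 1.03). Its 3 h values both lay above both controls, the opposite direction. A ratio of this kind shows unequal change of 2 mRNAs and does not show that either of them did not change. These ratios were given no test. All of them have Slc3a2 as denominator, so they are not independent of each other. The share of all genes whose ratio to Slc3a2 separates the groups was not counted. In CPM, 24.8% of all genes at 3 h and 31.2% at 6 h lay below the controls without overlap.

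**Figure D3:**
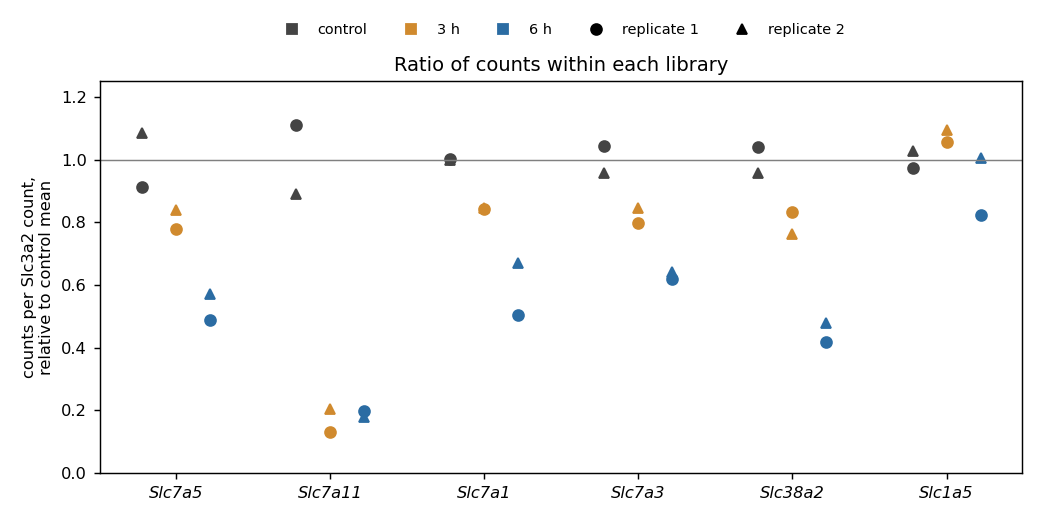
Counts of 6 transporters per count of the heavy chain Slc3a2 in each library, divided by the mean of the 2 control libraries (vertical axis, linear, starting at 0; horizontal line at 1). Colours are the groups, circles replicate 1 and triangles replicate 2. The 6 h values of Slc7a5, Slc7a1, Slc7a3 and Slc38a2 lie between 0.417 and 0.669, those of Slc7a11 at 0.196 and 0.179, and those of Slc1a5 at 0.825 and 1.00.

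The 2 transporters of the Slc1 family showed no call at either time. Slc1a5 (ASCT2), which takes up glutamine and other neutral amino acids, lies at chr7:16781340-16798274 on the plus strand and measured 81.4 and 96.3 CPM in the controls, 88.9 and 87.9 CPM at 3 h, and 79.0 and 85.8 CPM at 6 h. Both treated groups overlapped the controls, and the 6 h libraries lay below the 3 h libraries. The log2 fold change at 3 h rounded to 0.00 (SE 0.13, edgeR adjusted p = 0.997) and that at 6 h was -0.10 (95% confidence interval -0.39 to 0.19, edgeR adjusted p = 0.579). Slc1a4 (ASCT1), a carrier of alanine, serine, cysteine and threonine at chr11:20302180-20332713 on the minus strand, was read at 43 to 195 counts per library. Its level was 5.41 and 5.25 CPM in the controls, 6.98 and 11.3 CPM at 3 h, and 4.79 and 5.98 CPM at 6 h. Both 3 h libraries were above all others, but they differed from each other by more than the lower of them differed from the controls. The log2 fold change of 0.78 ± 0.33 at 3 h did not pass (edgeR adjusted p = 0.184), and that at 6 h was 0.00 (95% confidence interval -0.74 to 0.75, edgeR adjusted p = 0.994), an interval that still holds a fall as large as that of Slc7a3.

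Slc38a2 (SNAT2), the sodium-coupled importer known for its induction when cells lack amino acids, showed the firmest fall of the 9. It lies at chr15:96687392-96699730 on the minus strand and had 2728 to 4490 counts per library. The controls measured 323 and 333 CPM, the 3 h libraries 261 and 227 CPM, and the 6 h libraries 148 and 151 CPM. The groups stood apart, control above 3 h above 6 h. At 6 h the log2 fold change was -1.13 ± 0.11 (edgeR adjusted p = 0.000264), 54.4% lower than in the control, and by p it ranked 115 of the 12755 genes. This call was made under every one of the 17 alternative settings run, with log2 fold changes from -1.16 to -0.77. At 3 h the log2 fold change was -0.43 ± 0.11 (edgeR adjusted p = 0.0602).

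Slc38a1 (SNAT1), its close relative 44478 bases away on the same strand at chr15:96571418-96642913, did not pass the test at any time. Its levels were 204 and 190 CPM in the controls, 282 and 162 CPM at 3 h, and 140 and 183 CPM at 6 h. The 3 h libraries lay on both sides of the controls, with an SD of 84.5 CPM (n = 2), while both 6 h libraries were below both controls. The log2 fold changes were 0.17 ± 0.23 at 3 h (edgeR adjusted p = 0.696), which became -0.28 without 3 h replicate 1 (edgeR adjusted p = 0.467), and -0.29 at 6 h (95% confidence interval -0.80 to 0.23, edgeR adjusted p = 0.372). Per Slc38a1 read, the reads of Slc38a2 relative to the control mean were 0.951 and 1.05 in the controls, 0.555 and 0.839 at 3 h, and 0.633 and 0.497 at 6 h, lower in each treated library than in either control. This ratio was given no test, and how often such ratios separate over all genes was not counted.

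Between 3 h and 6 h, Slc38a2 was the 1 of the 9 that passed the test, with a log2 fold change of -0.70 ± 0.11 (edgeR adjusted p = 0.0142), beside 3.20% of all genes called (1.28% higher and 1.92% lower). This call was lost when any 1 of the 3 h or 6 h libraries was left out (edgeR adjusted p from 0.0753 to 0.128). For 6 of the 9, both 6 h libraries lay below both 3 h libraries, and for 1 above; over all genes 54.1% did not overlap, 26.9% lower and 27.2% higher. The median log2 fold change of the 9 was -0.40, against 0.00 over all genes. Slc7a5, at -0.48 ± 0.14, did not pass (edgeR adjusted p = 0.0982) but did when only the 4 libraries compared were fitted (edgeR adjusted p = 0.0376) or when either control library was left out (edgeR adjusted p = 0.0370 and 0.0379). For Slc1a4 the value was -0.78 ± 0.27 (edgeR adjusted p = 0.148).

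**Figure D4:**
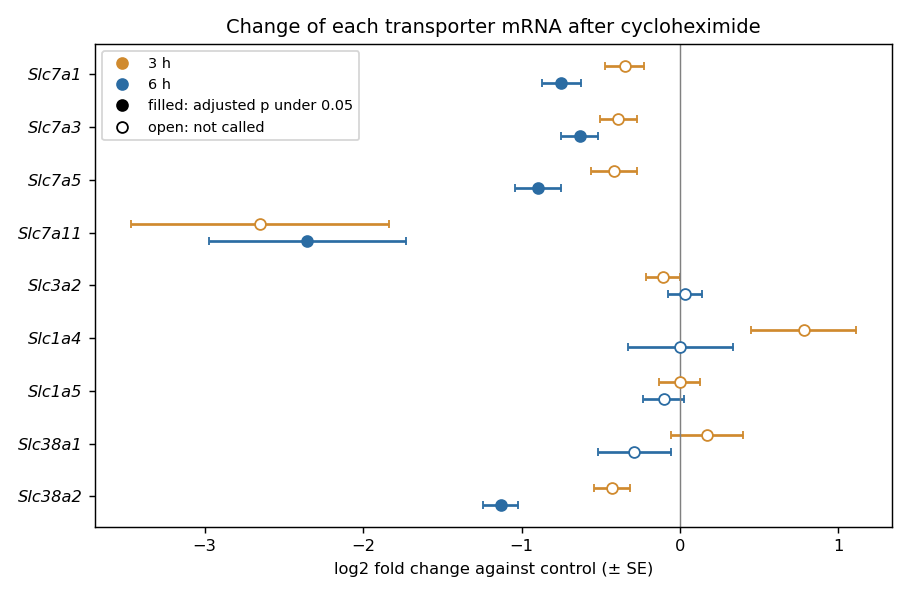
log2 fold change of each transporter mRNA against the control at 3 h and 6 h (horizontal axis), with bars of 1 SE from the edgeR fit over 6 libraries. Filled points passed at an adjusted p under 0.05. The 5 filled points are the 6 h values of Slc7a1, Slc7a3, Slc7a5, Slc7a11 and Slc38a2, from -0.63 to -2.35, and all 3 h points are open.

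For other amino acid transporters of the plasma membrane, the share called was no higher than over all genes. Of 38 further genes listed, 33 were in the files and 17 could be tested. At 3 h 0 of the 17 were called by edgeR (2 at an unadjusted p under 0.05, 1 by DESeq2 and 0 by limma-voom). Over all 12755 genes, edgeR called 4.56%, DESeq2 11.3% and limma-voom 3.49% at 3 h, and 3011 had an unadjusted p under 0.05. At 6 h 3 were higher and 1 was lower, beside 30.2% of all genes called (15.4% higher and 14.9% lower), with a median log2 fold change of 0.34. With scaling to library totals alone 5 were higher and 1 lower and the median was 0.69, beside 0.40 over all genes. That setting called 34.8% of all genes, 87.6% of them higher. The 1 that fell was Slc6a9 (GlyT1, a glycine transporter), from 5.56 and 7.33 CPM in the controls to 2.71 and 1.03 CPM at 6 h (log2 fold change -1.71 ± 0.43, edgeR adjusted p = 0.0156), after 10.4 and 8.84 CPM at 3 h. Slc43a2 (LAT4, which lets branched-chain and other neutral amino acids pass) rose from 6.52 and 5.99 CPM to 14.0 and 13.3 CPM (1.11 ± 0.23, edgeR adjusted p = 0.00666), and Slc1a3 (GLAST, a glutamate transporter) from 14.3 and 12.7 CPM to 24.9 and 20.2 CPM (0.73 ± 0.21, edgeR adjusted p = 0.0268). The third to rise was Slc43a1 (LAT3), named after its values were seen, which had 22 and 3 counts in the controls and 151 and 99 at 6 h (1.94 ± 0.64, edgeR adjusted p = 0.0273). No test of the difference between the 9 genes and this list was run.

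The counts called among transporters of inner membranes were likewise near the share over all genes and are given as a description. Of 12 listed lysosomal and other endomembrane transporters 9 were tested. At 3 h 0 were called by edgeR and limma-voom and 1 by DESeq2 (1 at an unadjusted p under 0.05). Of all 12755 genes, edgeR called 4.56%, limma-voom 3.49% and DESeq2 11.3% at 3 h, and 3011 had an unadjusted p under 0.05. At 6 h 1 was higher and 2 were lower, again beside 30.2% of all genes called, with a median of 0.06. Slc38a6 rose from 20.3 and 18.1 CPM to 38.4 and 36.5 CPM (0.95 ± 0.15, edgeR adjusted p = 0.00258). Slc38a7 (SNAT7, a lysosomal glutamine exporter) had a log2 fold change of -0.61 ± 0.18 (edgeR adjusted p = 0.0303) and Slc38a10 one of -0.83 ± 0.19 (edgeR adjusted p = 0.0119). The Slc38 family as measured here therefore held members that rose, fell and did not pass the test. With scaling to library totals alone, 2 of these 9 endomembrane genes were called at 6 h, both higher. That setting called 34.8% of all genes, 87.6% of them higher. Of 12 mitochondrial amino acid carriers 10 were tested. At 3 h 0 were called by edgeR, DESeq2 and limma-voom (1 at an unadjusted p under 0.05), beside the same shares of all genes. At 6 h Slc25a44, a branched-chain amino acid carrier, was higher (0.81 ± 0.18, edgeR adjusted p = 0.0101) and Sfxn3, a serine carrier of the sideroflexin family, was lower (-0.99 ± 0.22, edgeR adjusted p = 0.00970).

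Among 15 tested genes that sense amino acids or regulate ATF4, 3 were higher at 3 h and 0 were lower by edgeR, beside 4.56% of all genes called. The count at 3 h depended on the test. Limma-voom called 1, edgeR with DESeq2's scaling or with a replicate block 2, and DESeq2 5, of which 3 were higher and 2 lower. Over all genes these settings called 3.49%, 4.5%, 3.25% and 11.3%, in that order. Atf4 mRNA itself stood at 302 and 295 CPM in the controls, 477 and 452 CPM at 3 h, and 466 and 464 CPM at 6 h. It was higher in every treated library than in the controls, by a log2 fold change of 0.64 ± 0.10 at 3 h (edgeR adjusted p = 0.0100) and 0.64 ± 0.10 at 6 h (edgeR adjusted p = 0.00227). Atf3, a stress-induced factor of the same family, rose by 1.73 ± 0.39 at 3 h (edgeR adjusted p = 0.0312) and 1.47 ± 0.38 at 6 h (edgeR adjusted p = 0.0131), from 3.04 and 1.59 CPM in the controls to 7.62 and 8.73 CPM at 3 h. Ddit3 (CHOP), named after its values were seen, was at the edge of the threshold at 3 h (1.54 ± 0.40, edgeR adjusted p = 0.0499) and higher at 6 h (1.38 ± 0.39, edgeR adjusted p = 0.0190). At 6 h the list held these 3 as higher and 4 as lower, beside 15.4% of all genes higher and 14.9% lower. The 4 were Gcn1l1 (GCN1, which activates the eIF2 kinase GCN2; -1.34 ± 0.15, edgeR adjusted p = 0.000509), Trib3 (a pseudokinase that restrains ATF4; -1.44 ± 0.23, edgeR adjusted p = 0.00277) and, named after their values were seen, Ppp1r15b (an eIF2 phosphatase subunit; -0.52 ± 0.13, edgeR adjusted p = 0.0149) and Eif2s1 (the eIF2 alpha subunit; -0.34 ± 0.10, edgeR adjusted p = 0.0317). The list's median at 6 h was -0.32, and 0.03 with scaling to library totals alone.

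The non-transporter targets of ATF4 include enzymes of serine and asparagine synthesis and aminoacyl-tRNA synthetases, and 22 of them were tested (30 symbols listed, older and newer names included). At 3 h 0 of the 22 passed the edgeR test, with 9 at an unadjusted p under 0.05, 5 called by DESeq2 and 0 by limma-voom. Over all 12755 genes, edgeR called 4.56%, DESeq2 11.3% and limma-voom 3.49% at 3 h, and 3011 had an unadjusted p under 0.05. At 6 h 14 of the 22 were lower and 0 were higher, beside 14.9% of all genes lower and 15.4% higher. Their median log2 fold change was -0.58 (from -1.41 to 0.11), close to the -0.63 of the 9 transporters and beside 0.04 over all genes. With scaling to library totals alone 4 were lower and 1 higher and the median was -0.22. That setting called 34.8% of all genes, 87.6% of them higher, with a median of 0.40. Psat1, an enzyme of serine synthesis, went from 723 and 772 CPM to 453 and 417 CPM (-0.78 ± 0.10, edgeR adjusted p = 0.00101). Chac1, which degrades glutathione, went from 27.9 and 36.2 CPM to 13.0 and 12.5 CPM (-1.31 ± 0.18, edgeR adjusted p = 0.00124) after 36.4 and 40.6 CPM at 3 h. Asns, the asparagine synthetase, measured 213 and 176 CPM in the controls and 176 and 157 CPM at 6 h and did not pass (-0.23 ± 0.13, edgeR adjusted p = 0.215). So Atf4 mRNA was higher while 5 of the 9 transporters and 14 of the 22 other target mRNAs were lower in the same 6 h libraries; ATF4 protein was not measured.

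Slc7a11 can also be placed beside the 14 tested genes of cystine and glutathione metabolism and of the NRF2 response to oxidants. Of these, 2 were lower at 3 h, beside 1.36% of all genes lower and 3.21% higher. They were Gclm (-0.68 ± 0.13, edgeR adjusted p = 0.0208), the regulatory subunit of the first enzyme of glutathione synthesis, and Nqo1 (-0.68 ± 0.13, edgeR adjusted p = 0.0218), a quinone reductase. At 6 h 10 were lower and 1 was higher, with a median of -0.71, beside 14.9% of all genes lower and 15.4% higher. With scaling to library totals alone 6 were lower and 1 higher, with a median of -0.35. That setting called 34.8% of all genes, 87.6% of them higher. Gclm measured 266 and 300 CPM in the controls, 192 and 160 CPM at 3 h, and 125 and 118 CPM at 6 h (-1.22 ± 0.13, edgeR adjusted p = 0.000349). Srxn1, which repairs oxidised peroxiredoxins, went from 33.6 and 39.2 CPM to 12.3 and 12.1 CPM at 6 h (-1.57 ± 0.16, edgeR adjusted p = 0.000302). Nfe2l2, which encodes NRF2 itself, was the 1 that was higher (0.34 ± 0.11, edgeR adjusted p = 0.0359).

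**Figure D5:**
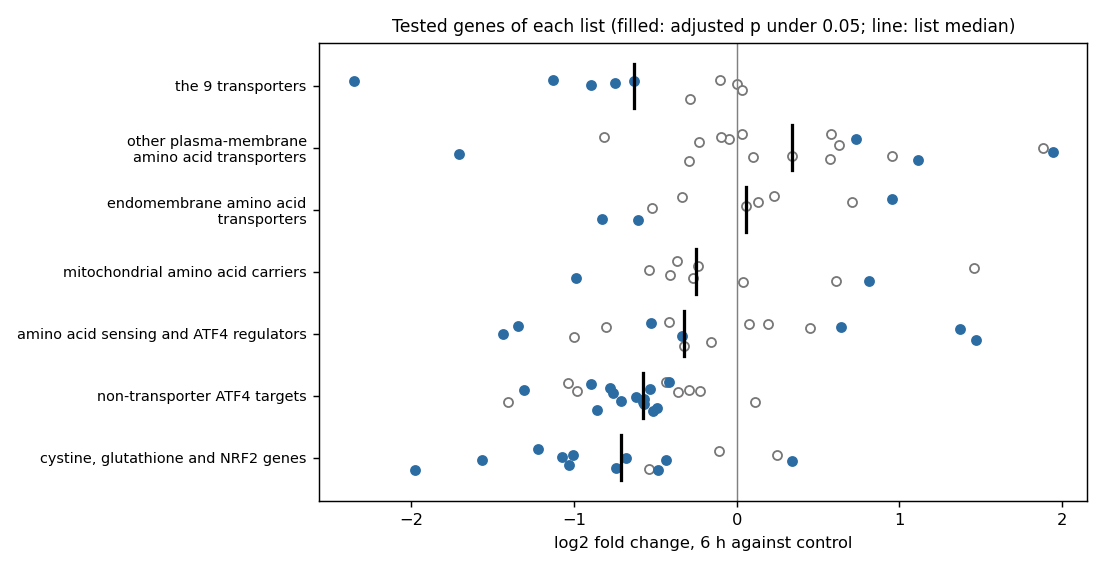
log2 fold change at 6 h against control (horizontal axis) of every tested gene in 7 lists; filled points passed at an adjusted p under 0.05, vertical bars are list medians, and vertical scatter within a list only separates points. The lists differ in their medians, from -0.71 for the cystine, glutathione and NRF2 genes and -0.63 for the 9 transporters to 0.34 for the other plasma-membrane transporters.

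For the 3 called transporters with the largest change at 6 h, the tested genes with the most similar course over the 6 libraries were sought among 5465 genes with a mean of at least 20 CPM, by the root mean square difference of centred log2 CPM. Nearest to Slc7a11 was Trim25 on chromosome 11 (difference 0.270 log2 units; log2 fold change -2.58 at 3 h and -2.25 at 6 h), followed by Mir17hg, the host transcript of a microRNA cluster, on chromosome 14 (0.321). Nearest to Slc38a2 were 2900097C17Rik on chromosome 2 (0.0568; -0.33 and -1.14) and Wdr74 on chromosome 19 (0.0583; -0.44 and -1.06). Nearest to Slc7a5 were Epas1 on chromosome 17 (0.0378; -0.43 and -0.87) and Grb10 on chromosome 11 (0.0390; -0.46 and -0.92). The course of Slc7a11 rests on 3 to 22 counts per library, so counting error weighs on the choice of its neighbours. With 6 libraries that share their scaling, such likeness is a description of these libraries.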

How the data were processed

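RNA from 6 samples in 3 groups was analysed, each group and replicate number taken from the sample titles. RNA was isolated with TRIzol, given sample barcodes and sequenced as 1 pool of polyadenylated RNA, per the labels' protocols; the design text speaks of single cells, but each deposited file holds 1 value per gene for 1 sample and was treated as bulk. The authors deposited whole-number read counts per gene, unnormalized. The genome build is mm10 per the submitters' processing notes. Which aligner, counter, gene models and strand setting were used, and whether reads were collapsed by molecule, is not given in the sources used here. Coordinates come from the GENCODE annotation of GRCm38, the same build, and promoters from RefSeq.

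Counts were filtered with filterByExpr (minimum count 10, minimum total 15), scaled by TMM (trims of 30% and 5%) and tested with edgeR 4.0.16 (glmQLFit, glmQLFTest) in R 4.3.3 on all 6 libraries, with 3 residual degrees of freedom. P-values were adjusted over all 12755 genes tested, and genes were called at an adjusted p under 0.05. The fits were also run on counts simulated from the mean levels and spreads estimated here, which cannot show the error rates of the real comparisons. Alternatives were DESeq2 1.42.0, limma-voom (limma 3.58.1), other scalings and filters, a replicate block and leaving out each library. Named list genes are the 2 called genes of smallest p per list, direction and comparison with control, plus Atf4 and Asns. The transporters and lists were chosen with earlier results of these data known. Replicates of a group differed by more than sampling noise (chi-square per degree of freedom 18.7 to 27.7), so none was counted as a repeat of the other. The exact intervals of the Slc7a11 count ratios and the floors cover counting error only, since reads are not known to be independent molecules. Confidence intervals of log2 fold changes come from the edgeR fit and so also reflect the spread between libraries.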

Additional observations from a re-analysis of the deposited data

Results flagged for a closer look

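For 1 of the 9 transporters the effect at 6 h differed from that at 3 h by a test of the difference itself. For Slc38a2 the log2 fold change of 6 h against 3 h was -0.70 (edgeR quasi-likelihood test, adjusted p = 0.0142), with 261 and 227 CPM at 3 h and 148 and 151 CPM at 6 h. The call was lost without any 1 of those 4 libraries, at adjusted p from 0.0753 to 0.128.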

How the results depend on the processing

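At 3 h the count of transporters called was 0, and 2 with DESeq2; leaving out 1 library at a time gave 0 to 1. At 6 h the count was 5, and 4 to 5 in every alternative and with every library left out in turn. The lowest counts came with a filter of 10 CPM, which leaves Slc7a11 untested, with thinning to the smallest total (chosen after seeing the data), and without single control or 6 h libraries, where Slc7a11 was lost. From 3 h to 6 h the count was 1, 2 with only the 4 libraries compared, and 0 to 2 with 1 library left out. The promoter motif was found in 2 genes, and in 1 within 150 bases before the start. With scaling to library totals alone the sign reversed for Slc3a2 at 3 h (0.12), Slc1a5 at 6 h (0.25) and from 3 h to 6 h (0.0281), and Slc38a1 at 6 h (0.0702), and Slc1a5 at 3 h, 0.00 in the fit reported, was 0.23; the medians of all genes were then 0.25, 0.40 and 0.13, and 95.5%, 87.6% and 67.8% of calls were higher, against 70.3%, 50.9% and 40.0%. Leaving out 1 library reversed Slc3a2 at 6 h (-0.0553 to 0.12, with -0.0511 without control replicate 1), Slc1a5 at 6 h (-0.23 to 0.0208) and Slc38a1 at 3 h (-0.28 to 0.51). None of these reversed values passed the test, and the cause was not tested.

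The number of genes called overall at 3 h was 582, 1256 with library totals, 1447 with DESeq2, 332 with only the 4 libraries compared, and 102 to 489 with 1 library left out. At 6 h it was 3858, and 1993 to 3357 with 1 library left out. From 3 h to 6 h it was 408, 688 with DESeq2, 209 with edgeR's older quasi-likelihood fit, 640 with only the 4 libraries, 244 with a replicate block, and 21 to 643 with 1 library left out. Where a library is left out, the lone library of its group is assumed to vary like the other groups. A replicate block gave 0, 5 and 1 transporters called at 3 h, 6 h and 6 h against 3 h; deviations of same-numbered libraries correlated by 0.09, -0.02 and 0.02, so the numbers are not shown to pair the samples. Depth limits Slc7a11 and Slc1a4 most, the 2 transporters with fewest counts.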
